A study of Mus musculus with 4 samples.

Results

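The cytosolic ribosomal protein genes were read in single nuclei of mouse kidney cortex, across 23 clusters of nuclei in 4 libraries. The members were all row symbols that start with Rpl or Rps, go on with a number and end in at most 1 of the letters a, x, y and l, with Rplp0, Rplp1, Rplp2 and Rpsa added and symbols holding -ps left out. This rule used names only and found 77 members among 21046 genes, 46 of the large subunit and its stalk and 31 of the small subunit. The study gave 1 library to each of 4 genotypes on C57BL/6J: Klf4flox/flox, which is the control and carries the unrecombined floxed allele, Klf4deltaEC, Nos3-/-, and Klf4deltaECNos3-/-, which joins both. Klf4 is a zinc-finger transcription factor that the labels give as lowered in endothelial cells, and Nos3 is endothelial nitric oxide synthase. The labels give no age, sex, Cre driver or number of mice per library. With 1 library per genotype there was no test and no p-value, and every difference is one between single libraries.

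Ribosomal proteins are the protein part of the cytosolic ribosome, which builds proteins from mRNA. Their mRNAs are short, abundant and held in the cytoplasm in most cells, and many start with a run of pyrimidines through which growth signalling sets their translation. Nuclei are isolated away from the cytoplasm, so these mRNAs are read in nuclei as newly made transcripts and as cytoplasmic RNA that stays with or around the nucleus, as mitochondrially encoded mRNAs also are.

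All levels are mean UMIs (unique molecular identifiers, 1 per captured RNA molecule) per 10000 UMIs of a nucleus. The level in a library is the mean over the 23 clusters, weighted by the nuclei of all libraries pooled, so that different proportions of the clusters did not enter. A different mix of cells within a cluster and RNA from other nuclei were not removed by this. Beside a value, brackets hold its 95% interval from counting, by the Poisson formula for levels and the binomial (Clopper-Pearson) formula for log2 ratios. Both formulas were applied to effective counts, the levels scaled by the recovered nuclei and depth, so the intervals are approximate. These intervals cover counting error only. Recovered from the table, the libraries held 6766, 6883, 7004 and 5491 nuclei in the order above, with means of 4884, 4364, 2593 and 5694 UMIs per nucleus, so the library labelled Nos3-/- was the shallowest. In cluster 10, the endothelial cell-like cluster, Klf4 stood at 0.621 (0.406 to 0.910), 0.779 (0.533 to 1.10), 0.445 (0.264 to 0.702) and 0.824 (0.547 to 1.19). Nos3 stood there at 1.26 (0.946 to 1.65), 0.930 (0.659 to 1.28), 1.52 (1.16 to 1.95) and 2.07 (1.61 to 2.61). Neither gene was lower where its label says that it was lost, so the libraries are called by their labels, and an exchange of labels was not tested. The same order of the libraries, control, Klf4deltaEC, Nos3-/- and Klf4deltaECNos3-/-, holds wherever 4 values stand in a row.

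The 77 members together took 9.49 (9.34 to 9.65) UMIs per 10000 in the control library, 10.4 (10.2 to 10.6) in the library labelled Klf4deltaEC, 5.83 (5.69 to 5.97) in that labelled Nos3-/- and 13.8 (13.6 to 14.03) in that labelled Klf4deltaECNos3-/-. All members were detected in each library, yet their whole sum was at most 0.138% of the UMIs. The library labelled Nos3-/- was thus lowest and that labelled Klf4deltaECNos3-/- highest. Both subunits showed this order: large subunit members summed to 5.83, 6.42, 3.63 and 8.54, and small subunit members to 3.67, 3.97, 2.20 and 5.27.

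This order held in nearly every cluster. The library labelled Nos3-/- had the lowest summed level in 23 of 23 clusters. That labelled Klf4deltaECNos3-/- had the highest in 22, the exception being cluster 13, the fibroblast or mural cell-like cluster, where it read 13.5 against 13.6 in the control.

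**Figure D1:**
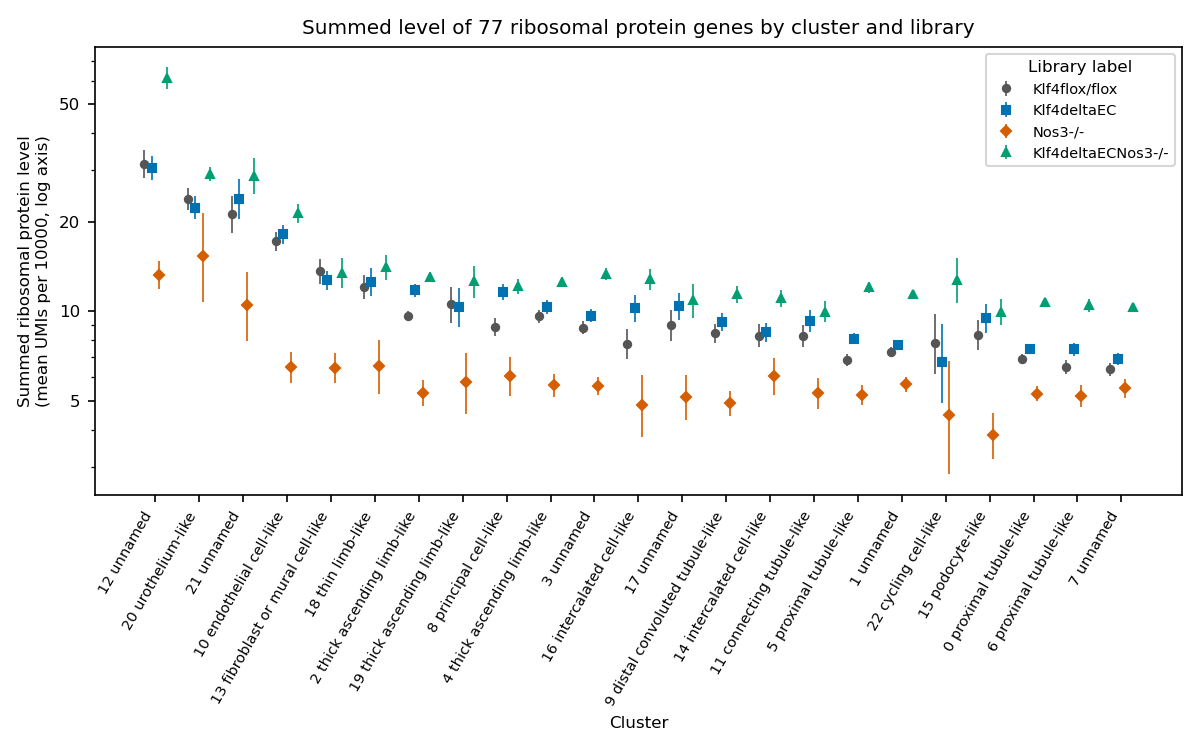
Summed level of the 77 ribosomal protein genes (y axis, mean UMIs per 10000, log axis) in each cluster (x axis, ordered by the mean over the libraries) and library (colour and marker), with 95% Poisson counting intervals as bars. Cluster 12 stands highest in 3 libraries, and the points of the library labelled Nos3-/- are the lowest in all 23 clusters.

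The clusters differed by 4.93-fold in the control, from 6.38 in cluster 7, which was unnamed, to 31.4 in cluster 12. Cluster 12 was unnamed, was led by Kap, an androgen-responsive mRNA of the proximal tubule, Fth1, the ferritin heavy chain, and Gpx3, a secreted glutathione peroxidase, and held few UMIs, 961, 930, 1129 and 962 per nucleus. Its summed level was 31.4 (28.2 to 35.0), 30.5 (27.6 to 33.5), 13.3 (11.9 to 14.8) and 61.2 (56.1 to 66.5). It was the highest cluster in all libraries but that labelled Nos3-/-, where cluster 20 was higher. Cluster 12 gave 8.76%, 7.76%, 6.03% and 11.7% of the summed level from 2.65% of the weight. Without it the summed levels were 8.90, 9.85, 5.63 and 12.5, in the same order.

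Clusters 20, 21 and 10 came next by the mean over the libraries. Cluster 20, urothelium-like, read 23.9, 22.4, 15.4 and 29.1, and that of the library labelled Nos3-/- rested on 12 nuclei. Cluster 21, an immune cluster led by Dock2 and Ptprc whose macrophage and lymphocyte markers scored alike, read 21.3, 23.9, 10.5 and 28.7. Cluster 10 read 17.3 (16.03 to 18.6), 18.2 (16.9 to 19.5), 6.496 (5.74 to 7.33) and 21.5 (19.9 to 23.1). In these non-tubular clusters the library labelled Nos3-/- again lay below the intervals of the other 3 in clusters 10 and 21. In cluster 20 its interval, 10.7 to 21.4, overlapped that of the library labelled Klf4deltaEC, 20.5 to 24.4. The proximal tubule-like clusters 0, 5 and 6 were among the 4 lowest in the control, at 6.51 to 6.92. In the library labelled Klf4deltaECNos3-/- they read 10.7, 12.05 and 10.5, and cluster 5 ranked 14 of 23 from the top.

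Clusters of greater depth tended to have lower summed levels. Over the 21 clusters with at least 20 nuclei in every library, log2 level and log2 mean UMIs per nucleus had Pearson r of -0.87, -0.87, -0.53 and -0.76, as a description, since both share the UMI total. Without cluster 12 r was -0.77, -0.79, -0.29 and -0.45, so in the libraries labelled Nos3-/- and Klf4deltaECNos3-/- much of the relation rested on that cluster. Level times mean depth, an approximate number of ribosomal protein UMIs per nucleus, had a median over clusters of 3.90, 3.59, 1.42 and 6.55. This product varied 3.66-fold over the control's clusters while depth varied 10.8-fold. Cluster 20 had the highest product in every library, 10.5, 9.27, 3.20 and 17.1, at a depth in the middle of the range.

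The 13 mitochondrially encoded mRNAs followed the same order of clusters. Their summed level had r of 0.97, 0.98, 0.83 and 0.97 with that of the members over the same 21 clusters, and 0.94, 0.97, 0.63 and 0.91 without cluster 12. Between libraries the 2 groups parted. Mitochondrial mRNAs summed to 56.1, 54.3, 24.9 and 56.3, lowest in the library labelled Nos3-/- like the members, but at 56.3 against 56.1 in the library labelled Klf4deltaECNos3-/- and the control, where the members differed by 0.54 in log2. In all 92 combinations of cluster and library the members lay below the mitochondrial sum, by 1.54-fold to 7.69-fold.

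**Figure D2:**
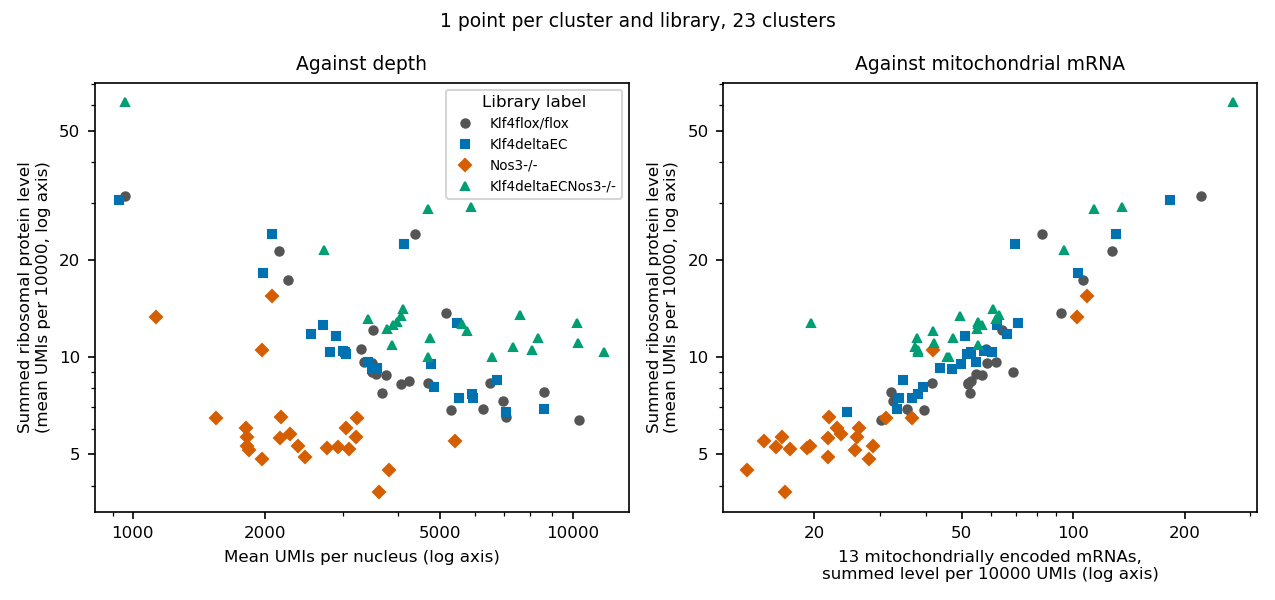
Summed ribosomal protein level (y axes, mean UMIs per 10000, log) against mean UMIs per nucleus (left, log axis) and against the summed level of the 13 mitochondrially encoded mRNAs (right, log axis), 1 point per cluster and library. Pearson r of the log2 values is -0.53 to -0.87 with depth, and -0.29 to -0.79 without cluster 12, and 0.83 to 0.98 with the mitochondrial sum, and 0.63 to 0.97 without that cluster.

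The members ranged widely among themselves. Their mean over the libraries ran from 0.00744 to 0.713 per 10000, with a median of 0.0854, and the 10 highest gave 34.2% of the sum. Levels of different genes are set side by side as UMI counts, with no correction for transcript length.

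Rpl41, the smallest ribosomal protein, was the highest, at 0.670, 0.837, 0.464 and 0.883. Its 4 exons span 128548114 to 128549305 of chromosome 10, minus strand (GRCm38, GENCODE M21). Rplp1 and Rplp0, parts of the stalk that recruits translation factors, read 0.347, 0.410, 0.201 and 0.471, and 0.214, 0.259, 0.0851 and 0.390. Rplp2, the partner of Rplp1 in that stalk, was lower and flatter, at 0.0630, 0.0663, 0.0586 and 0.0728. The other high members were Rps9 (mean 0.352), Rpl14 (0.321), Rps24 (0.310), Rpl6 (0.299), Rpl10a (0.269), Rps15 (0.268) and Rpl4 (0.254).

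Members with known further roles ranked from 11 (Rpl5) to 42 (Rpl11) of 77 by mean level. Rpsa, also known as a laminin receptor precursor, read 0.184, 0.186, 0.166 and 0.289. Rpl5, which with Rpl11 and 5S ribosomal RNA binds the p53 regulator Mdm2, read 0.228, 0.194, 0.178 and 0.297, and Rpl11 read 0.0699, 0.0799, 0.0591 and 0.100. Rps6, the substrate of S6 kinase, read 0.1505, 0.146, 0.0776 and 0.255. Rps27a, made as a fusion with ubiquitin, read 0.137, 0.159, 0.0602 and 0.167. In all 5 the library labelled Klf4deltaECNos3-/- was highest and that labelled Nos3-/- lowest.

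The lowest members were Rpl3l (0.00744), Rpl36a (0.0133), Rps27 (0.0212), Rpl35 (0.0239) and Rpl37 (0.0251). Rpl3l replaces Rpl3 in heart and skeletal muscle, and at 0.00680, 0.00804, 0.00667 and 0.00826 it stood far below Rpl3, at 0.0640, 0.0682, 0.0690 and 0.0648. Rpl7, at 0.229, 0.256, 0.0439 and 0.356, and its like-named relative Rpl7l1, at 0.214, 0.227, 0.177 and 0.247, had similar levels outside the library labelled Nos3-/-. Rpl22 read 0.218, 0.186, 0.133 and 0.248, and Rpl22l1 0.0922, 0.0959, 0.0428 and 0.0951. Rps27l read 0.0705, 0.0766, 0.0349 and 0.0799, above the Rps27 row at 0.0232, 0.0269, 0.0127 and 0.0221. The row Rps27rt, whose sequence matches the 3' end of Rps27, read 0.491, 0.796, 0.191 and 0.556, above both. Rps4x had a mean of 0.125, Rpl10 of 0.0606 and Rpl39 of 0.0517.

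**Figure D3:**
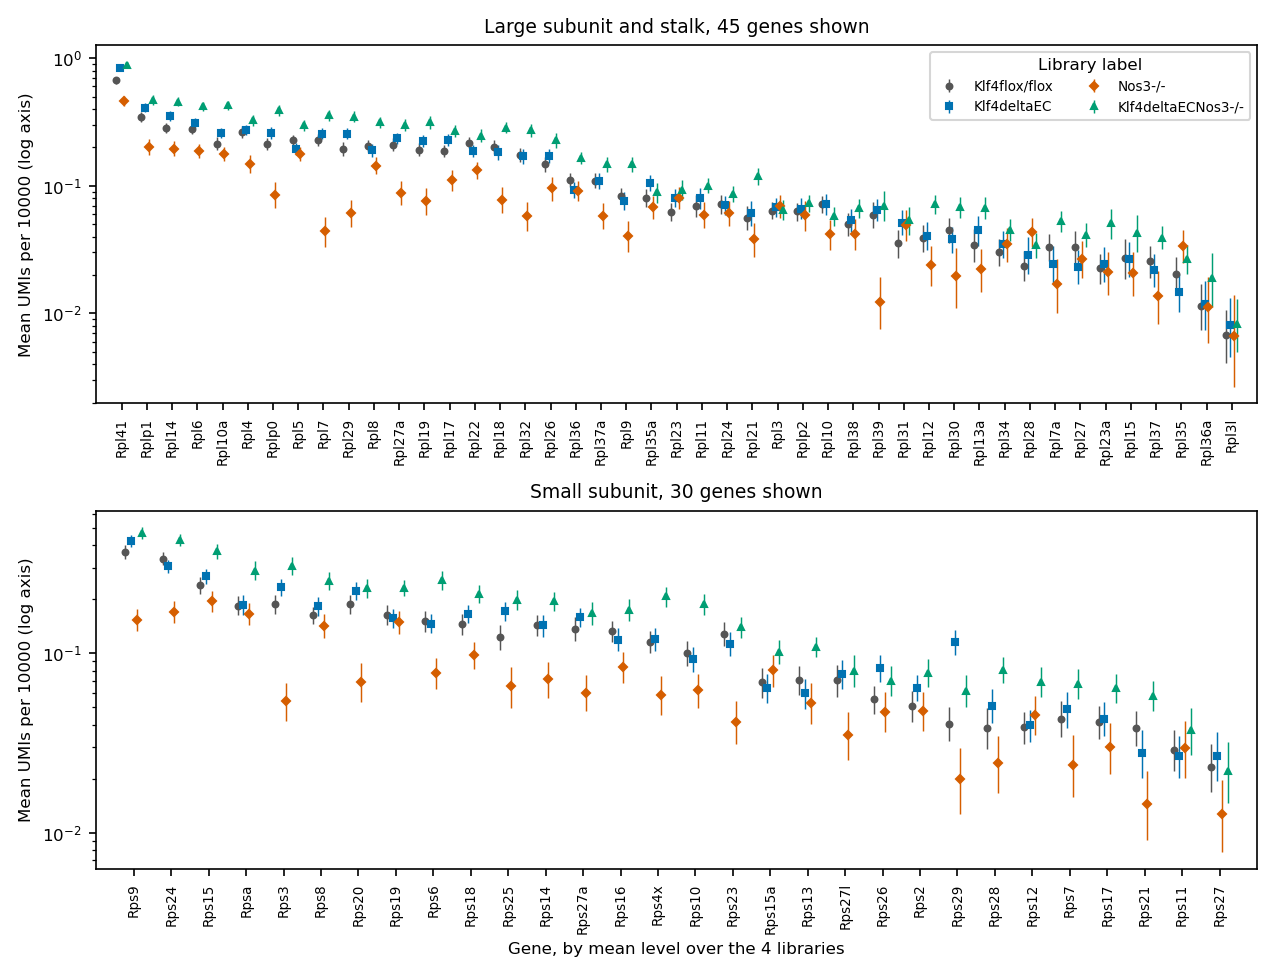
Level of 75 of the 77 members (y axes, mean UMIs per 10000, log axis) in the 4 libraries (colour and marker) with 95% Poisson counting intervals, in 2 panels by subunit and ordered by mean level. The levels run from Rpl41 down to Rpl3l, and the library labelled Nos3-/- is the lowest of the 4 for 66 of all 77 members. The share of all genes that are lowest in that library is not given.

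Ribosomal protein genes have many processed copies in the genome, and a low row can be low through its copies. In 21 members no stretch of 50 bases in the last 300 of the main transcript recurred in a transcript of another gene, and in 41 at least 50% of such stretches did. The table holds 11 pairs of a member and another row that shares at least 50% of the member's stretches. In 7 of these pairs the other row was the higher. Rps27 had a mean of 0.0212 and Rps27rt, which shares 100% of its stretches, of 0.508. Rpl35 had 0.0239 and Gm2000 0.238, Rpl9 had 0.0868 and Rpl9-ps6 0.491, and Rpl27 had 0.0311 and Rpl27-ps3 0.315. No source at hand says how the authors' counting dealt with such reads, so the levels of these members are uncertain.

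The comparisons between libraries use the log2 ratio of levels. With a pseudocount of 0.1 and a mean level of at least 0.5 per 10000, only Rpl41 of the members entered. It passed the limit of a log2 ratio of 1 in either direction in 0 of 5 comparisons, against 0.358%, 2.22%, 2.89%, 0.613% and 0.434% of 3915 genes for Klf4deltaEC over control, Nos3-/- over control, Klf4deltaECNos3-/- over Nos3-/-, over Klf4deltaEC and over control. A limit on lower levels, a mean of at least 0.02 with a pseudocount of 0.01, was added after the levels were seen and takes in 75 members and 13278 genes. The counts below rest on it, and the log2 ratios of named members are given without a pseudocount.

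Between the library labelled Nos3-/- and the control, the members' summed level differed by -0.70 (-0.74 to -0.66) in log2. It was lower in 23 of 23 clusters, with the interval below 0 in all of them, from -1.41 in cluster 10 to -0.21 in cluster 7. Of 75 members, 65 were lower and 10 higher, where 59.4% of all genes were lower and 40.6% higher. Past the limit stood 14 lower, 18.7% of the members against 6.49% of all genes, and 0 higher, against 0.64% of all genes. The members' median was -0.54 and that of all genes -0.08.

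The size of this difference ranged widely from member to member. Whether that range exceeds counting error was not tested, and the first members named here are the lowest of the 75. Rpl7, a large subunit protein, went from 0.229 to 0.0439, -2.38 (-2.82 to -1.96) in log2. Rpl39, which lines the exit tunnel, went from 0.0593 to 0.0123, -2.26 (-3.06 to -1.53), and Rps3, which sits at the mRNA entry site, from 0.187 to 0.0540, -1.79 (-2.21 to -1.40). Rplp0 differed by -1.33 (-1.71 to -0.96), Rps9 by -1.26 (-1.51 to -1.02) and Rpl41 by -0.53 (-0.69 to -0.38).

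A few members stood at or above the control. Rpl28 read 0.0235 in the control and 0.0432 in the library labelled Nos3-/-, 0.88 (0.33 to 1.42) in log2. Rpl35 read 0.0204 and 0.0338, 0.73 (0.09 to 1.38). Both were among the 3 of 75 members with an interval above 0, against 22.5% of all genes, while 48 had one below 0, against 35.3%. Rpl28 shares no 3' stretch with another gene. Rpl35 shares 96.0% with Gm2000, which read 0.230 and 0.103, so the 2 rows went opposite ways. Summed, the 2 rows differed by -0.88 in log2. In all 11 pairs with a copy in the table the other row was more strongly lower than the member, with a median of -1.37 against -0.57, and all 11 other rows had their lowest level in the library labelled Nos3-/-.

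Other measures moved with this library. It was the shallowest. In the 12 clusters named for types other than proximal tubule, with at least 20 nuclei in every library, the 12 proximal tubule markers, all above 0 in every cluster, summed to a median of 17.01 (range 13.9 to 91.9), 16.96 (11.5 to 82.4), 56.4 (40.9 to 94.996) and 12.4 (9.77 to 106), and they were highest in the library labelled Nos3-/- in 11 of 12. Kap in the same clusters had medians of 18.6 (12.7 to 39.4), 29.1 (16.7 to 55.9), 4.08 (2.93 to 7.53) and 18.2 (11.5 to 41.9), lowest in that library in 12 of 12. In the proximal tubule-like clusters Kap was also lowest in the library labelled Nos3-/-. It ranged there over 13.4 to 17.3, 17.8 to 22.04, 4.07 to 7.78 and 18.02 to 28.7. The part of depth and of RNA from other nuclei in the members' lower level was not tested.

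Set against the library labelled Nos3-/-, the library labelled Klf4deltaECNos3-/- had a summed level higher by 1.24 (1.20 to 1.29) in log2. This pair asks what the Klf4deltaEC label adds on the Nos3-/- background. All 23 clusters were higher, with intervals above 0, from 0.88 to 2.20, and the top value was that of cluster 12. Of 75 members 71 were higher, against 67.8% of all genes. Past the limit stood 42, 56.0% of members against 9.27% of all genes, and 0 stood past it in the lower direction, against 0.7%. The members' median was 1.09 and that of all genes 0.19.

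Rpl7 led, from 0.0439 to 0.356, 3.02 (2.61 to 3.45) in log2. Rpl29, a large subunit protein, followed from 0.0609 to 0.347, 2.51 (2.14 to 2.91), and Rps3 from 0.0540 to 0.306, 2.50 (2.12 to 2.91). At the other end Rpl35 stood at -0.35 (-0.94 to 0.25) and Rpl28 at -0.33 (-0.82 to 0.18), which were also among the highest against the control in the library labelled Nos3-/-. As both comparisons hold that library, these values are not separate readings.

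Between the library labelled Klf4deltaEC and the control the members differed little. The summed log2 ratio was 0.13 (0.10 to 0.16), and the 23 clusters ran from -0.21 to 0.40, 18 above 0 and 5 below, with 8 intervals above 0 and 0 below. The members' median was 0.09 and that of all genes -0.02. Past the limit stood 1 member higher, 1.33% of the members against 0.994% of all genes, and 0 lower, against 0.316%. The members' share was thus near that of all genes.

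That member was Rps29, a small subunit protein with a zinc-binding fold. It read 0.0405, 0.116, 0.0199 and 0.0617, so the library labelled Klf4deltaEC stood above the other 3, with 1.51 (1.12 to 1.92) in log2 against the control. Its 3 exons span 69157722 to 69159186 of chromosome 12, minus strand, and 48.6% of its 3' stretches recur in other genes. Next came Rps26 at 0.58 (0.22 to 0.94) and Rps25 at 0.47 (0.18 to 0.77). Among the lowest were Rpl27 at -0.51 (-1.14 to 0.12) and Rps21 at -0.46 (-1.03 to 0.09), whose intervals include 0.

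Above the library labelled Klf4deltaEC, the library labelled Klf4deltaECNos3-/- had a summed log2 ratio of 0.41 (0.38 to 0.44), with all 23 clusters above 0 and 16 intervals above 0. Of 75 members 69 were higher and 6 lower, where 67.6% of all genes were higher. The members' median was 0.42 against 0.14 for all genes. But 0 members passed the limit either way, against 0.715% of all genes higher and 1.48% lower. The highest were Rps10, from 0.0931 to 0.188, 1.01 (0.71 to 1.32), Rpl9 at 0.95 (0.65 to 1.25) and Rpl21 at 0.96 (0.58 to 1.36). Rps10 came nearest to the limit, its ratio being 0.94 with the pseudocount. The lowest were Rps29 at -0.91 (-1.29 to -0.53), Rpl10 at -0.31 (-0.68 to 0.06) and Rpl35a at -0.24 (-0.58 to 0.10).

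Against the control, the library labelled Klf4deltaECNos3-/- stood at 0.54 (0.51 to 0.57) for the sum. In 22 of 23 clusters it was higher, with 21 intervals above 0 and 0 below. Of 75 members 73 were higher, against 65.8% of all genes. The members' median was 0.50 against 0.11 for all genes. Again 0 members passed the limit, against 0.655% of all genes higher and 0.384% lower. Rpl21 at 1.09 (0.71 to 1.47), Rpl10a at 0.99 (0.79 to 1.20) and Rps28 at 1.08 (0.63 to 1.55) were the highest. With the pseudocount, on which the limit rests, the highest ratio was 0.97, that of Rpl21. Rpl10 at -0.31 (-0.64 to 0.02), Rps27 at -0.07 (-0.81 to 0.65) and Rpl3 at 0.02 (-0.33 to 0.37) were the lowest. An interval above 0 was found for 58 members, against 37.6% of all genes. The share of genes with an interval off 0 also depends on their counts.

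The label Nos3-/- thus went with opposite differences on the 2 Klf4 backgrounds, in libraries that the 2 comparisons do not share. Of 75 members, 60 were lower in Nos3-/- than in the control and higher in Klf4deltaECNos3-/- than in Klf4deltaEC, against 38.6% of all genes. For 38 both intervals lay off 0 in these directions, against 13.1% of all genes. For 1 member the signs were the other way round. The sizes of the 2 ratios had a Spearman rho of -0.03 across the 75 members, which are not independent of each other. The difference between the backgrounds was not tested.

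**Figure D4:**
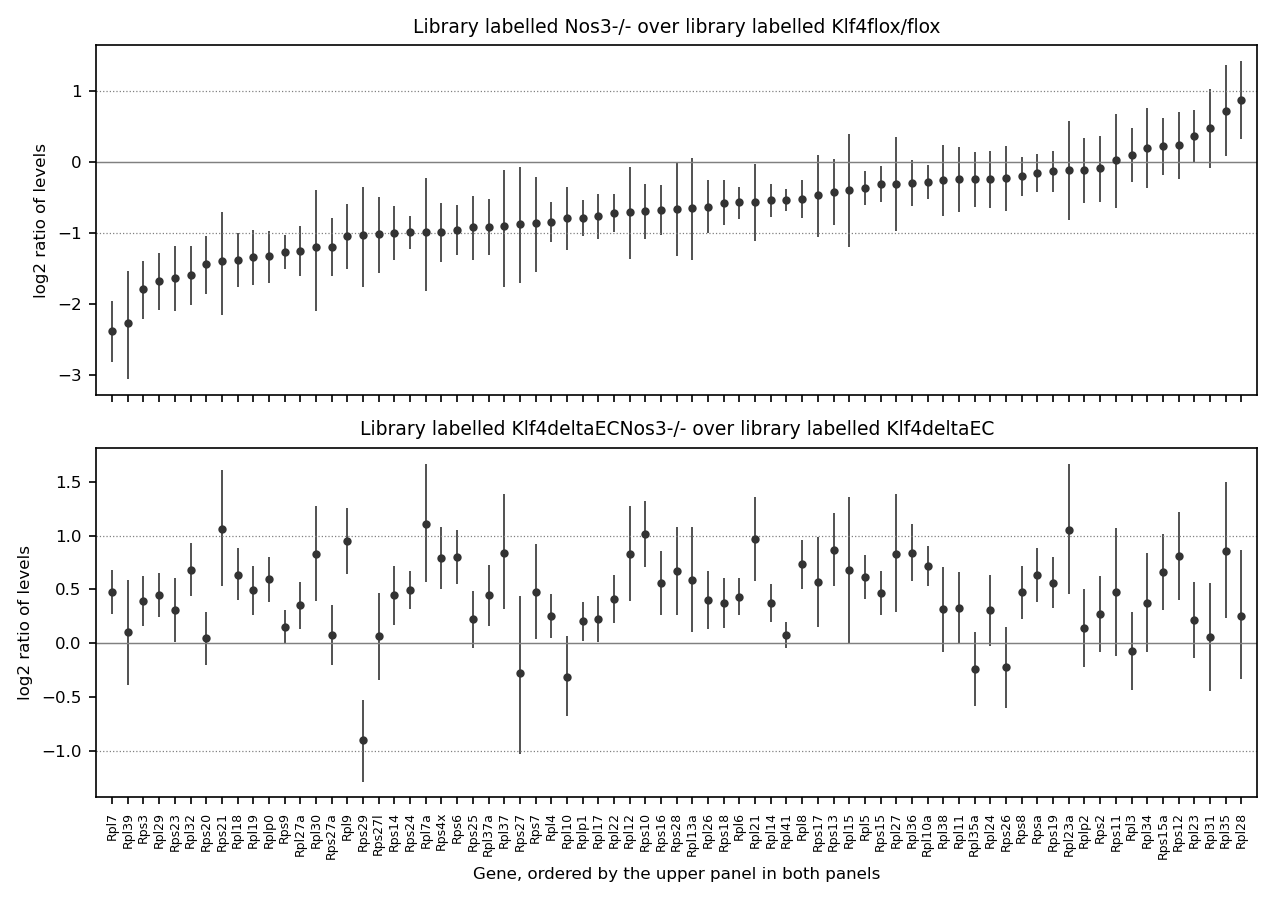
log2 ratio of levels (y axes) of 73 of the 75 members with a mean level of at least 0.02, in the library labelled Nos3-/- over the control (upper) and in that labelled Klf4deltaECNos3-/- over that labelled Klf4deltaEC (lower), with 95% binomial counting intervals. Genes are ordered by the upper panel in both, and dotted lines mark log2 ratios of -1 and 1. The ratios drawn have no pseudocount, so a point past a line need not be past the limit used for counts. Most points lie below 0 in the upper panel and above 0 in the lower, with Rpl7 at the left end and Rpl28 at the right.

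Other gene lists show what moved beside the members. Abundant cytoplasmic mRNAs outside the ribosome summed to 11.9, 15.5, 7.02 and 19.9 over 15 genes. Fth1 alone took 3.25, 4.85, 0.991 and 6.28 of these, while Actb, the cytoskeletal actin, read 0.794, 0.711, 0.805 and 1.17 and Tmsb4x, an actin-binding peptide, 0.595, 0.609, 0.119 and 0.551. For Nos3-/- over control the list's median was -0.28, with 11 of 14 genes past the filter lower. Nuclear-encoded respiratory chain genes, 24 of them, summed to 12.02, 15.2, 9.02 and 15.9. Translation factors and other mRNAs with a pyrimidine start, 18 genes such as Eef1a1 and Pabpc1, summed to 6.67, 7.12, 5.53 and 8.73. Their median for Nos3-/- over control was -0.06, against -0.08 for all genes, with 6 of 18 higher, and Eef1a1 gave most of the difference between the sums, from 1.74 to 0.813.

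Genes that build the ribosome moved less. The 23 ribosome biogenesis genes, which act in the nucleolus, summed to 4.88, 4.91, 5.12 and 5.72, and for the library labelled Nos3-/- over the control their median was 0.04 against -0.54 for the members, with 0 of 23 past the limit. The 12 regulators of growth and ribosome production on the list summed to 11.5, 10.6, 11.9 and 12.7. RNAs that stay in the nucleus summed to 927, 1031, 741 and 798 over 6 genes, nearly all of it Malat1, at 895, 998, 698 and 763. Neat1 was highest in the library labelled Nos3-/-, at 26.2, 27.2, 36.4 and 29.04, and 4 of the 6 genes were higher there than in the control, with a median of 0.24. Ribosomal protein rows that the name rule leaves out, 8 in all, such as Fau and Rps3a1, and with Rack1, which also stands among the translation factors, summed to 1.37, 1.65, 0.728 and 1.65. Rps27rt took 0.491, 0.796, 0.191 and 0.556 of these. For Klf4deltaECNos3-/- over Klf4deltaEC 5 of the 7 past the filter were higher, with a median of 0.34 against 0.42 for the members. The 5 hosts of small nucleolar RNAs summed to 4.36, 4.30, 3.61 and 5.05.

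**Figure D5:**
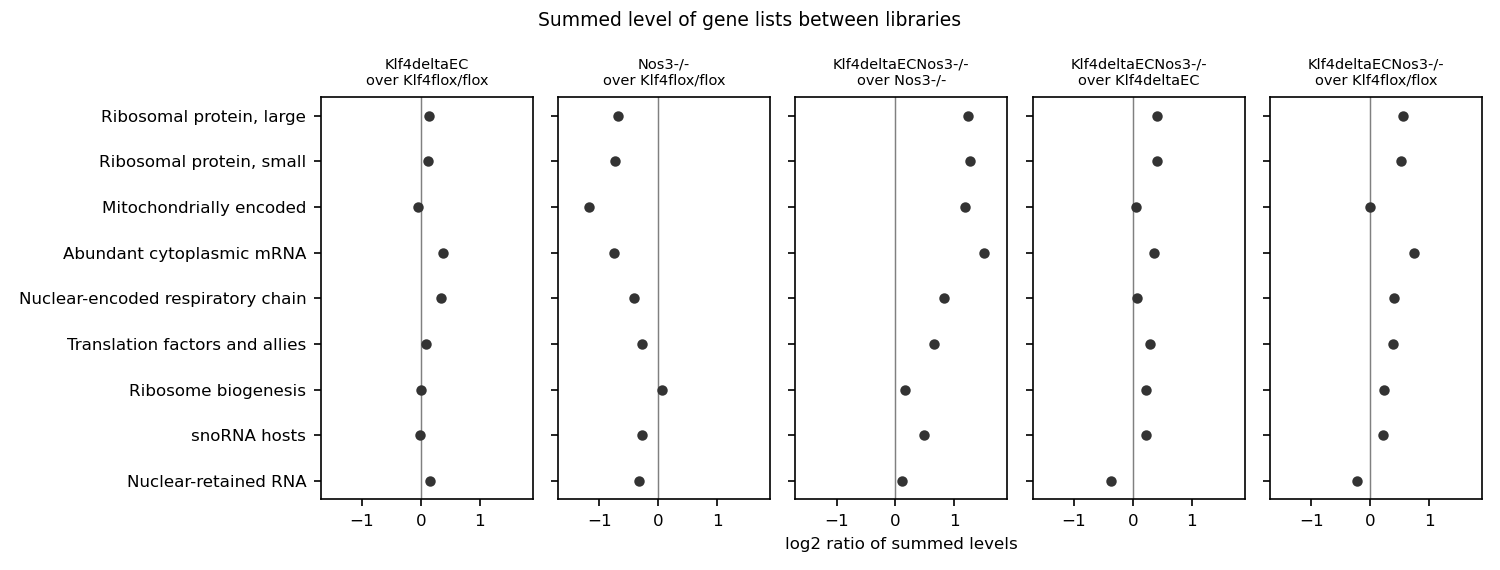
log2 ratio of summed levels (x axes) of gene lists (rows) in the 5 comparisons of libraries (panels), with 95% binomial counting intervals, most of which are narrower than the points. The panels of Nos3-/- over control and Klf4deltaECNos3-/- over Nos3-/- share a pattern. The ribosomal protein genes of both subunits, the mitochondrial list and the abundant cytoplasmic list stand farthest from 0, and ribosome biogenesis near it.

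The make-up of the ribosomal protein pool was also read by cluster. There were 752 pairs of a cluster and a member with at least 30 effective UMIs in the cluster, over the 4 libraries together. Of these, 124 had the member above its library-wide share of the pool in all 4 libraries, and 96 below. The number to be had from counting error alone was not worked out. The shares are given without intervals, and a share in a single library can rest on few UMIs. The pairs named here were chosen after their values were seen, from the 25 highest and 15 lowest by median shift. Rps24, a small subunit protein, took 6.75%, 4.56%, 6.503% and 5.86% of the pool in cluster 9, the distal convoluted tubule-like cluster, against 3.55%, 2.93%, 2.91% and 3.10% over all clusters. It was likewise high in cluster 19, thick ascending limb-like, with 5.83%, 3.55%, 5.52% and 6.74%, from 39.7 effective UMIs over the 4 libraries together. Rps2 took 1.36%, 1.72%, 1.35% and 0.805% in the proximal tubule-like cluster 6, against 0.532%, 0.619%, 0.816% and 0.562%. Rpl11 took 1.34%, 1.21%, 2.20% and 1.41% in cluster 2, thick ascending limb-like, against 0.736%, 0.769%, 1.01% and 0.725%.

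Some shares were low instead. Rpl10a took 1.98%, 1.74%, 1.06% and 1.05% in the endothelial cell-like cluster 10, against 2.26%, 2.49%, 3.04% and 3.09%. It had 37.7 effective UMIs in that cluster over all libraries together. By range over clusters the widest members were Rpl18 (3.18 in log2 with the pseudocount of 0.1), Rpsa (2.82), Rps3 (2.79), Rplp1 (2.75) and Rpl19 (2.69), each highest in cluster 12. Rpl18, for instance, had a mean over the libraries of 0.958 in cluster 12 and of 0.0164 in cluster 22, the cycling cell-like cluster of few nuclei.

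Members followed the pool to different degrees. Over the 84 columns of clusters with enough nuclei, each member's log2 level was set against the summed level of the others, as a description of columns that share libraries and depth. Rps3 had the highest r, 0.92, and 19 members reached 0.8, all with mean levels of at least 0.1397. For 18 of the 75 r was below 0.2, and their levels were lower, 0.0239 to 0.115, which in sparse counts leaves little to read.

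Outside the members, the 10 genes most like the summed level over the same columns were Eef1a1 (r of 0.93), the elongation factor that brings tRNAs to the ribosome, Fth1 (0.93), mt-Co3 (0.93), Gm11808 (0.92), mt-Co2 (0.92), mt-Cytb (0.91), mt-Atp6 (0.90), Rpl9-ps6 (0.90), Cox8a (0.90) and mt-Nd4 (0.90). Of these, 5 are mitochondrially encoded, and Rpl9-ps6 shares its 3' end with Rpl9. Eef1a1 read 1.74, 2.02, 0.813 and 2.13, and Fth1 3.25, 4.85, 0.991 and 6.28.

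The start of a ribosomal protein mRNA carries its best known sequence feature. Windows of 30 bases around the RefSeq start site (GRCm38.p6), 15 on each side, are shown for 7 members. They are written 5′ to 3′ on the gene's strand. Rps3, Rplp0, Rps9 and Rpl27a were lower in the library labelled Nos3-/- than in the control. The rows of Rpl28 and Rpl35 were higher, and Rplp2 differed little. Capitals mark the run of C or T at the start. For 57 of 77 members a RefSeq promoter was matched and read here.
Rps3: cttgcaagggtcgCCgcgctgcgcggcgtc
Rplp0: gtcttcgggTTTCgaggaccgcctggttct
Rps9: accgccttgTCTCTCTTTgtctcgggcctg
Rpl27a: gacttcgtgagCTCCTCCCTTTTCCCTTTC
Rpl28: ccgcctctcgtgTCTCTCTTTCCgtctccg
Rpl35: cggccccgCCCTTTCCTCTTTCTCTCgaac
Rplp2: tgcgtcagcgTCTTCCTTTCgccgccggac
The windows lie on chromosome 7 from 99483695 to 99483724 (Rps3, minus strand), 5 from 115559452 to 115559481 (Rplp0), 7 from 3704026 to 3704055 (Rps9), 7 from 109519180 to 109519209 (Rpl27a), 7 from 4792950 to 4792979 (Rpl28), 2 from 39005117 to 39005146 (Rpl35, minus strand) and 7 from 141447636 to 141447665 (Rplp2).

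A run of at least 6 bases, all C or T on the gene's strand and within 3 bases of the start, was found in 22 of 57 members, 38.6%, and in 4205 of the 27025 gene symbols in the RefSeq promoter table, 15.6%. It was present in Rps9 and Rpl27a, which were lower in the library labelled Nos3-/-, and also in Rpl28 and Rpl35, whose rows were higher. Summed with Gm2000, which shares its 3' stretches, Rpl35 was lower there, by -0.88 in log2 against the control. Among the 14 members past the limit in that comparison 3 of 8 with a window had the run, and among the other 61 members 19 of 47. Among members with r of at least 0.8 it was 5 of 13 and among those with r below 0.2 it was 6 of 14. A matched run is a description of these letters, and RefSeq start sites can differ from the ones used in kidney.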

How the data were processed

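Nuclear RNA of kidney cortex was profiled on the 10X Chromium system, per the labels. The submitters' processing notes name Cell Ranger, Seurat and the mm10 build, without versions. The deposited table gives a normalised signal, the mean over the nuclei of a cluster of UMIs per 10000, for 21046 genes in 92 columns, 23 clusters by 4 libraries; every column sums to 10000. The clustering is the authors'. How nuclei were filtered, how doublets and free RNA were treated and whether intronic reads were counted are not given in the sources at hand, and cell barcodes were not analysed here.

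Nuclei and depth were recovered from the reciprocals of single-UMI values, of which at least 92.9% were multiples of the number taken in every column (relative tolerance 3e-14). In simulated columns 13 of 13 nuclei numbers were exact and the effective UMI totals were off by at most 4.19%. In the same simulated columns the ratio intervals of 96.7% of unchanged genes held 0. That share is not given for genes as low as most members, or for levels weighted over clusters. It therefore does not show how often the members' own intervals hold the true ratio. No column of other samples was present (0 left out). A cluster was named from marker genes where their mean scaled level reached 1 and exceeded that of every other type by 0.5, with 3 or more markers detected and no other type with more markers among the 10 leading genes. Named members are the 10 highest and 5 lowest by level, the 3 highest and 3 lowest ratios per comparison among members past the added limit, the 5 widest over clusters, and members chosen by role, except some that are not reported here. The members, lists and named genes were chosen with earlier results of these data known. Scripts ran in Python 3.11.15 with numpy 2.4.6, pandas 2.3.3 and scipy 1.17.1. GENCODE M21 gave positions and 3' ends. Alternatives are given under the dependence on processing.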

Additional observations from a re-analysis of the deposited data

Results flagged for a closer look

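The effect of the Nos3-/- label on the summed ribosomal protein level pointed opposite ways on the 2 Klf4 backgrounds. With the pseudocount the log2 ratio was -0.69 for Nos3-/- over Klf4flox/flox and 0.41 for Klf4deltaECNos3-/- over Klf4deltaEC. In 16 of 23 clusters both counting intervals lay off 0 in these opposite directions. Each genotype is 1 library, so the difference was not tested, and genotype and library cannot be told apart.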

How the results depend on the processing

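None of the 5 log2 ratios of the summed level changed sign under any alternative. For Klf4deltaEC over control, equal cluster weights gave 0.09. For Nos3-/- over control, a pseudocount of 0.5 gave -0.66, equal cluster weights -0.79, adding ribosomal protein and -ps genes outside the name rule -0.77, and leaving out cluster 12, chosen after the levels were seen, -0.65. For Klf4deltaECNos3-/- over Nos3-/-, the same alternatives gave 1.18, 1.29, 1.30 and 1.14. For Klf4deltaECNos3-/- over Klf4deltaEC, median-ratio size factors gave 0.33 and leaving out cluster 12 gave 0.34. For Klf4deltaECNos3-/- over control, equal weights, median-ratio size factors and leaving out cluster 12 each gave 0.49. Members past the limit numbered 0 in every comparison with the filter of 0.5, which let in only 1 member. Without a filter, they numbered 1 of 77 for Nos3-/- over control and 9 of 77 for Klf4deltaECNos3-/- over Nos3-/-. The pseudocount was still 0.1, above the members' median level of 0.0854. The share of all genes past the limit is not given for that setting. The lower filter of 0.02 and the pseudocount of 0.01 were added after the levels were seen. With them, members past the limit numbered 14 and 42 in the same comparisons, and 1 for Klf4deltaEC over control. That setting changed the filter and the pseudocount together, and their parts were not separated. Clusters below 0 for Klf4deltaEC over control numbered 3 when only clusters of at least 20 nuclei were used. For Klf4deltaECNos3-/- over Klf4deltaEC they numbered 2 with median-ratio size factors and 1 with the added genes. Low counts limit the members below about 0.1 per 10000. No paired analysis was possible because each genotype has 1 library and no result comes from a test.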
